A study of Mus musculus with 6 samples.

Results

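Transcription factors that give mesenchyme its place in the embryo, outside the Hox clusters, were followed in mouse embryonic fibroblasts (MEF), lymph node (LN) stroma and 2 LN stromal cell lines. The members were 43 genes named from the T-box, homeobox, forkhead, bHLH, Osr and GATA families, and all 43 had an entry in the table, of 19938 genes in all. Each gene was read as the log2 of its deposited intensity, from its brightest entry. Only Foxf1 had more than 1 entry.

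RNA had been hybridised to 6 single-colour Affymetrix arrays, 1 for each sample. One array held MEF cultured from trypsin-treated C57BL/6JJcl embryos at E11.5-13.5 (days of gestation), with no region of the embryo named in the labels. One held LN stroma of adult C57BL/6JJcl mice, sorted without culture as cells lacking CD45 and CD31 and carrying podoplanin and VCAM-1. The labels do not say which LN were taken or whether animals were pooled. The other 4 arrays held the established lines BLS4 and BLS12, both from adult LN of BALB/cA mice, each grown alone and with 1 µg/ml of a goat polyclonal agonist of LTβR (the lymphotoxin β receptor) for 2 days. No control antibody is among these samples, and each sample had 1 array. MEF and the lines were cultured and LN stroma was not, and strain, age and establishment as a line changed along with cell type, so these cannot be told apart. In RNA from mixed cells, fewer cells of a type and less RNA per cell cannot be told apart either.

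Patterning factors of this kind are switched on in the embryo by signals such as Hedgehog, BMP, FGF, Wnt and retinoic acid, and many stay on in adult fibroblasts of the region where they began. T-box and LIM homeobox factors mark limb, heart and jaw fields, Prrx, Alx and Twist factors mark limb and head mesenchyme, Foxf and Gata factors mark the mesenchyme of internal organs, and Nkx2-3, Nkx2-5, Nkx3-2 and Tlx1 are known for their part in forming the spleen. Nkx2-3 is also known for its role in the expression of the adhesion molecule MAdCAM-1.

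Array medians lay between 5.69 and 5.82 log2 intensity. The table held no detection call, so the 95th percentile of 1194 olfactory and vomeronasal receptor genes, which lay between 5.05 and 5.21 on the 6 arrays, was taken as a background level. By this level 42 of the 43 members were above background in MEF, 40 in LN stroma, 38 in unstimulated BLS4 and 36 in unstimulated BLS12. The array medians lay above this level, so most entries on each array passed it too, and these counts do not set the members apart. Meox2 was above the background level in LN stroma alone, and Tbx20 and Foxd1 in MEF alone. Meox1 and Tcf21 were above it in those samples and in neither unstimulated line. Probes differ in their own background, and a steady level above this limit was not read as expression. The cardiac and splenic factor Nkx2-5, for example, held between 6.92 and 7.23 on all 6 arrays. The text therefore turns on how a gene moved between arrays. LN stroma carried its markers: all 12 with an entry lay at or above the array median, against 9 in MEF and 9 to 11 on the line arrays. Among them were Cxcl13 at 12.82 and Ccl19 at 12.49, both under 6.5 on every other array. Ptprc, which encodes CD45, was at 5.70 and Pecam1, which encodes CD31, at 6.44 on the LN stroma array. Podoplanin (Pdpn) lay between 10.20 and 11.68 on all 6 arrays, and so did not set LN stroma apart.

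The members moved widely. Between the lowest and the highest of the 6 arrays, 15 of the 43 members (34.9%) differed at least 4-fold, against 9.49% of all genes. The median range was 1.58 log2 units for the members and 0.62 for all genes. As the members were chosen with earlier results of these data known, these contrasts are a description only. MEF had the highest array for 16 members, LN stroma for 12, a BLS4 array for 8 and a BLS12 array for 7. Each line had 2 arrays, while MEF and LN stroma had 1 each. The same count over all genes is not given, so this too is a description. For 14 members the range stayed under 1 log2 unit, so their highest array rested on a small difference.

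**Figure D1:**
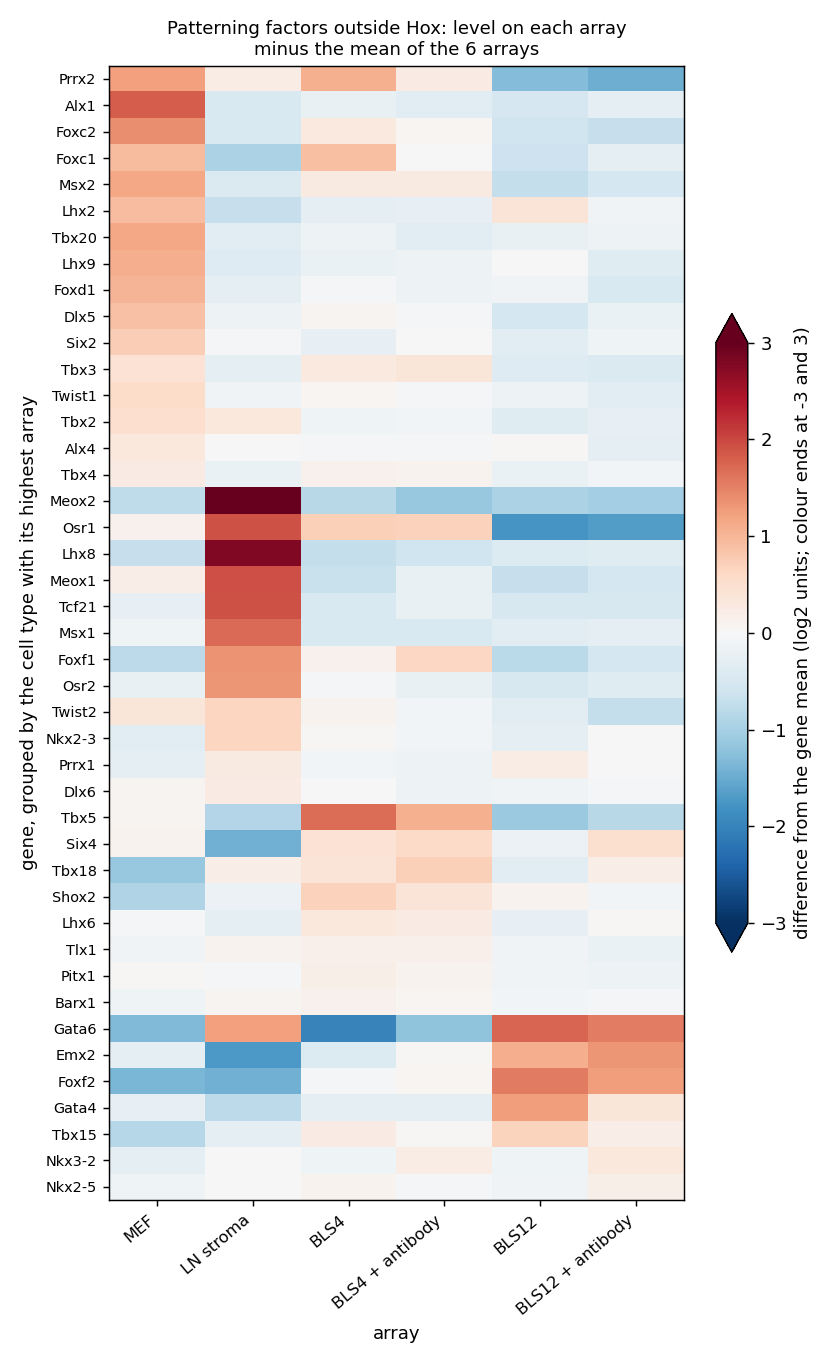
Level of each of the 43 members on each of the 6 arrays, as the difference from the gene's own mean over the arrays in log2 units (red above the mean, blue below, colour ends at -3 and 3), with genes grouped by the cell type that holds their highest array. The strongest red cells are Meox2 and Lhx8 on the LN stroma array, and the BLS12 arrays are red for Gata6, Emx2, Foxf2 and Gata4.

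The members with small ranges included those known as general mesenchymal factors. Prrx1, a homeobox factor of limb and head mesenchyme, stood at 10.43 in MEF, 10.97 in LN stroma, 10.62 and 10.55 in BLS4 without and with antibody, and 10.93 and 10.70 in BLS12. The bHLH factor Twist1, active in head and limb mesenchyme, lay between 8.24 and 9.10. Both varied by less than 1 log2 unit over the arrays, with MEF lowest for Prrx1 and highest for Twist1. The range of Twist2, its close relative, was somewhat wider, from 7.48 in antibody-treated BLS12 to 8.83 in LN stroma. The smallest range of any member, 0.25, was that of Barx1, a factor of stomach mesenchyme. Of the factors of spleen formation, Tlx1 lay between 5.48 and 5.83 and Nkx3-2 between 6.13 and 6.73. Nkx2-3 moved the most of them, from 5.88 in MEF to 6.84 in LN stroma, a range of 0.96. Other members with ranges under 1 unit were Tbx2, Tbx3, Tbx4, Pitx1, a factor of the hind limb (6.05 to 6.38), Lhx6, Alx4 and Dlx6.

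Meox2, Lhx8, Msx1 and Tcf21 were the members high in LN stroma above both lines that had a promoter in the RefSeq table (GRCm38.p6), which served for 27 of the 43 members. The sequences in front of their starts are shown because these genes were high in the same sample. Each run is the 250 bases before the start, 5′ to 3′ on the strand of the gene. Capitals mark the TATA-type motif TATAAA, the CCAAT box as CCAAT itself, the homeobox-type motif TAATTA, the GATA-type motif AGATAA and the forkhead-type motif TGTTTAC, each searched on both strands with overlaps kept.
Meox2, chr12:37108290-37108539, plus strand: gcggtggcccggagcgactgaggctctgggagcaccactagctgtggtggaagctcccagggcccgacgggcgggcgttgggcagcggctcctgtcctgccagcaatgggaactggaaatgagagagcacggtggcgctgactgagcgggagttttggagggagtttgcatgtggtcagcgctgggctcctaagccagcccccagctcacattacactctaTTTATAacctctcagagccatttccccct
Lhx8, chr3:154330561-154330810, minus strand: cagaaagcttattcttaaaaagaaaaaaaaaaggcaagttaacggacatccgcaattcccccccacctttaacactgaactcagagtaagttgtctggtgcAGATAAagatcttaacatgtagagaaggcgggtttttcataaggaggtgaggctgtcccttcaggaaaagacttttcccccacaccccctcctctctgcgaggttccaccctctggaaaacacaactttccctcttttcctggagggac
Msx1, chr5:37824586-37824835, minus strand: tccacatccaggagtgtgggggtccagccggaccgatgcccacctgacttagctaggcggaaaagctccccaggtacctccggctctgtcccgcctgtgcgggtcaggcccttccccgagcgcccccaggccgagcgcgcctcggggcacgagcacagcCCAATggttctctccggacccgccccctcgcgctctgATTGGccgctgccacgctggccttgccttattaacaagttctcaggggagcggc
Tcf21, chr10:22820144-22820393, minus strand: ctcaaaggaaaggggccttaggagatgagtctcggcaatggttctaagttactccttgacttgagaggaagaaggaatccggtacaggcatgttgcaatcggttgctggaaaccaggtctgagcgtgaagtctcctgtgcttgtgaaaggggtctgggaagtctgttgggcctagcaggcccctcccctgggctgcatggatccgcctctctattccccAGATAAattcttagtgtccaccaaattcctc

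Meox2 held a TATAAA match on the opposite strand, beginning 29 bases before the start, and 12.4% of 32817 promoters held this motif within the same length. AGATAA began 149 bases before the start in Lhx8 and 31 before it in Tcf21, and 9.99% of promoters held it. Msx1 held CCAAT in both orientations, beginning 91 and 54 bases before the start, as 33.8% of promoters did in at least 1. The 4 differed in base composition, from 46% G and C in Lhx8 and 52.4% in Tcf21 to 62% in Meox2 and 68% in Msx1, with a median of 52.4% over all promoters. No motif in capitals was common to all 4 sequences. A match is a run of letters and was not tested as a site.

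The comparison of LN stroma with MEF asked how adult stroma taken straight from the LN differs from embryonic fibroblasts in culture. It rested on 1 array each, so there was no test and no replicate check. LN stroma held far more Meox2, and more Lhx8, Gata6, Tcf21 and Foxf1, and less Alx1. Meox2, a homeobox factor of the somites and their derivatives, stood at 9.96 in LN stroma, at 4.49 in MEF, at 4.43 and 4.12 in BLS4 without and with antibody, and at 4.30 and 4.23 in BLS12. LN stroma was the single sample above the background level, and the difference from MEF was 5.48 log2 units (44.5-fold), with a size that is approximate as MEF lay below background. Lhx8, a LIM homeobox factor known from jaw mesenchyme and forebrain neurons, stood at 8.72 in LN stroma, 5.27 in MEF, 5.23 and 5.35 in BLS4, and 5.54 and 5.59 in BLS12. The other 5 arrays lay close together and the LN stroma array stood apart from all of them.

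Tcf21, a bHLH factor of epicardium and of the mesenchyme of internal organs, was at 7.33 in LN stroma and 5.17 in MEF, and between 4.94 and 5.20 on the 4 line arrays. The forkhead factor Foxf1, a Hedgehog target in gut mesenchyme, was at 9.39 in LN stroma and 7.25 in MEF, and its other entry gave 8.48 and 6.27. Gata6, a zinc finger factor of heart and gut development, stood at 10.17 in LN stroma against 7.60 in MEF. Alx1, a homeobox factor of head mesenchyme, ran the other way, with 7.70 in MEF and 5.43 in LN stroma (4.82-fold). Alx1 on the 4 line arrays and in LN stroma lay between 5.38 and 5.67, so MEF alone stood out.

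At 4-fold, 5 of the 41 members above the intensity filter were higher in LN stroma and 1 was lower, against 4.64% and 2.93% of the 12613 genes kept (7.57% in either direction). At 2-fold 10 were higher and 11 lower, 51.2% of the members kept against 22.3% of all genes. The median difference was -0.11 log2 units for the members kept and for all genes kept. The filter kept a gene if either array reached its median, and a gene kept through 1 array alone had to differ. Of the members past 2-fold, Meox1, Meox2, Lhx8 and Tcf21 were kept through LN stroma alone. Alx1, Tbx20, Six4, Lhx9, Emx2, Msx2, Foxd1 and Foxc1 were kept through MEF alone. The counts were thus tied to the filter and are not read against those shares.

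Among the members 2-fold or more higher in LN stroma but under 4-fold were the zinc finger factors Osr1, known from intermediate mesoderm (9.70 against 7.91), and Osr2, known from palate (7.30 against 5.75). Msx1, a homeobox target of BMP signalling, was at 8.97 against 7.15, Meox1, a partner of Meox2 in the somites, at 7.34 against 5.61, and Tbx18, a T-box factor of pericytes and the ureter, at 8.60 against 7.26. Each pair is 1 array against 1.

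The 11 members at least 2-fold lower in LN stroma than in MEF were, beside Alx1, Foxc1 (7.48 against 5.60) and Foxc2 (7.66 against 5.81), forkhead factors of paraxial mesoderm, Lhx2 (7.50 against 5.88) and Lhx9 (6.45 against 4.96), LIM homeobox factors of the limb bud, and Six4, a factor of muscle precursors (6.88 against 5.33). Msx2 (6.85 against 5.26), Dlx5, a jaw factor (7.09 against 6.07), Emx2, a factor of urogenital and forebrain development (6.67 against 5.24), Tbx20, a cardiac T-box factor (5.76 against 4.27), and Foxd1, a factor of kidney stroma (5.80 against 4.49), were the others. For Lhx9, Tbx20 and Foxd1 the LN stroma value lay below background. In the lines Tbx20 lay between 4.28 and 4.44 and Foxd1 between 4.32 and 4.74, while unstimulated BLS4 and BLS12 held Lhx9 at 5.17 and 5.36, so MEF was the highest array for all 3. Markers of skeletal muscle, cartilage and bone had a summed intensity of 2015 in MEF and 2962 in LN stroma, with Acta1 higher in MEF (10.07 against 6.83) and Des higher in LN stroma (11.12 against 8.21).

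Markers of other cells moved along with this comparison. Leukocyte markers (14 of 15 with an entry) were above background in 10 of 14 cases in MEF and 11 in LN stroma and summed to 2453 and 721, mostly through the macrophage gene Lyz2 (10.36 in MEF, 5.73 in LN stroma). Endothelial markers (10) summed to 930 in MEF and 863 in LN stroma but moved both ways. Tek (8.18 in LN stroma, 5.18 in MEF) and Pecam1 (6.44 and 4.73) were higher in LN stroma. Kdr (5.96 in LN stroma, 7.93 in MEF) and Flt1 (6.31 and 8.12) were higher in MEF. All 9 pericyte and smooth muscle markers were above background in both, with sums of 17335 in MEF and 13539 in LN stroma and opposite leading genes: Rgs5 (11.30 in LN stroma, 6.62 in MEF), Abcc9 (12.18 and 5.35) and Kcnj8 (10.08 and 5.67) were higher in LN stroma, and Tagln (12.34 in MEF, 9.83 in LN stroma) and Cnn1 (10.20 and 6.15) in MEF. The part of these cells in the members' differences was not tested.

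**Figure D2:**
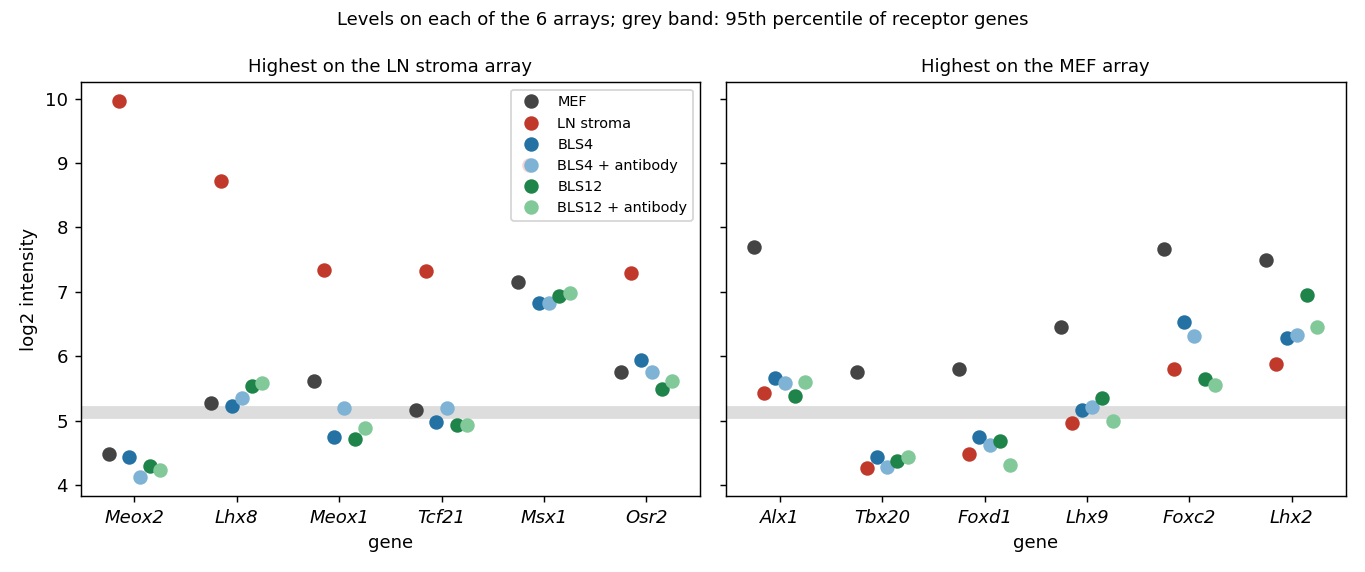
Log2 intensity of 6 members highest in LN stroma (left) and 6 highest in MEF (right), 1 point for each of the 6 arrays, with the grey band at the background level of 5.05 to 5.21. Meox2 at 9.96 and Lhx8 at 8.72 on the LN stroma array stand far above their other arrays, and Tbx20 and Foxd1 rise above the band in MEF alone.

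The comparison of LN stroma with the unstimulated lines asked which of these factors the cultured lines shared with sorted LN stroma. The lines came from LN of a different strain, so the LN stroma array is not their own source tissue. In all, 5 members were at least 4-fold higher in LN stroma than in both lines, and none was 4-fold lower. These were Meox2 (by 5.53 log2 units over BLS4 and 5.67 over BLS12), Lhx8 (3.48 and 3.18), Meox1 (2.60 and 2.62), Tcf21 (2.35 and 2.39) and Msx1 (2.14 and 2.04). Meox1 stood at 7.34 in LN stroma and between 4.72 and 5.19 on the 4 line arrays, and Msx1 at 8.97 and between 6.82 and 6.98. For Meox1, Meox2 and Tcf21 the unstimulated lines lay below background, so the folds are approximate. With antibody-treated lines, or with each array centred on its median, 4 remained and Msx1 fell just under 4-fold. The 5 were among 38 members kept, and of 12827 genes kept 3.52% were higher, 0.569% lower and 4.09% either. Meox1, Meox2, Lhx8 and Tcf21 lay below the array median in both lines and passed the filter through LN stroma alone, so this count was tied to the filter and is not read against those shares.

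At 2-fold, 8 members were higher and 3 lower in LN stroma than in both lines, 28.9% of those kept against 11.3% of all genes. The others higher in LN stroma were Foxf1, Osr1 and Osr2. Osr1 stood 1.19 units above BLS4 and 3.67 above BLS12, so the lines themselves were far apart. The 3 lower in LN stroma were Six4 (5.33, against 7.20 in BLS4 and 6.60 in BLS12), Emx2 (5.24, against 6.55 and 8.06) and Foxf2 (6.20, against 7.57 and 9.19). Of these, Six4 and Emx2 passed the filter through the lines alone, and Meox1, Meox2, Lhx8 and Tcf21 passed through LN stroma alone. The 2-fold count was thus also tied to the filter and is not read against the share of all genes. Endothelial markers summed to 863 in LN stroma and to 436 to 485 on the line arrays. The pericyte and smooth muscle list moved with this comparison too, summing to 13539 in LN stroma and to 4175 to 6196 on the line arrays. The part of either list was not tested. Of the 9 pericyte and smooth muscle markers, 7 were higher and 2 lower in LN stroma than the mean of the unstimulated lines. Abcc9, at 12.18 in LN stroma, lay between 5.13 and 5.34 in the lines. Acta2 ran the other way (11.32 in LN stroma, 12.14 in unstimulated BLS4 and 12.13 in unstimulated BLS12), as did Cnn1 (6.15, 7.88 and 7.52).

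The comparison of the unstimulated lines with MEF set 2 cultures of adult LN origin against 1 of embryonic origin. Alx1 was the one member at least 4-fold apart in both lines, with differences of -2.03 log2 units in BLS4 and -2.32 in BLS12. That was 1 of 37 members kept, against 1.14% of 12676 genes lower, 0.308% higher and 1.44% in either direction. Alx1 lay below the array median in both lines and passed the filter through MEF alone, so its count was tied to the filter. After quantile normalization it was no longer 4-fold apart in both, and no member was left. At 2-fold 8 members (21.6%) passed in both lines, against 5.82% of genes. Tbx15, Foxf2 and Shox2 were higher in the lines, and Alx1, Foxc2, Lhx9, Tbx20 and Foxd1 were lower. Lhx9, Tbx20 and Foxd1, like Alx1, passed the filter through MEF alone. The 2-fold count was thus tied to the filter too and is not read against the share of all genes.

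Tbx15, a T-box factor of limb and skin mesenchyme, stood at 8.11 in MEF, 9.22 and 9.01 in BLS4 without and with antibody, and 9.64 and 9.18 in BLS12, with LN stroma at 8.70. Shox2, a homeobox factor of the limb and of the cardiac pacemaker, stood at 6.08 in MEF, 7.67 and 7.36 in BLS4, 7.10 and 6.89 in BLS12, and 6.80 in LN stroma. For both, MEF was the lowest array. The comparison with MEF used the same MEF array as that of LN stroma with MEF, so the values stand side by side: Alx1 was lower than in MEF by 2.27 log2 units in LN stroma, 2.03 in BLS4 and 2.32 in BLS12, and Foxc2 by 1.85, 1.12 and 2.01.

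The lines differed from each other in many of these factors. In the additive model over the 4 line arrays, 13 of the 33 members tested passed, 4 higher in BLS12 (Gata6, Foxf2, Emx2 and Gata4) and 9 higher in BLS4 (Osr1, Tbx5, Prrx2, Foxf1, Msx2, Foxc2, Tbx3, Tbx18 and Shox2). Of the 11988 genes tested, 23.6% passed, 12.2% higher in BLS12 and 11.4% higher in BLS4. The median member difference was -0.27 log2 units, against 0.00 over all genes tested. All 13 had the same direction with and without antibody, which passing this model nearly requires. Only 1 residual degree of freedom was left in this model, and its p-values measure the spread between these samples alone, which may be technical.

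Gata6 stood at 10.69 and 10.48 in BLS12 without and with antibody and at 6.93 and 7.73 in BLS4. The line difference was 3.25 log2 units (SE 0.255, adjusted p = 0.00156), and LN stroma, at 10.17, stood near BLS12. Gata4, its relative in heart development, stood at 8.18 and 7.30 in BLS12 and at 6.64 and 6.65 in BLS4, and differed by 1.09 (SE 0.233, adjusted p = 0.0256). It did not follow Gata6 in LN stroma, where it was at 6.16, the lowest of its 6 values. Without antibody as a covariate the adjusted p of Gata4 was 0.0864.

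Foxf2, a forkhead factor of gut and palate mesenchyme, stood at 9.19 and 8.89 in BLS12 and at 7.57 and 7.69 in BLS4, with 6.25 in MEF and 6.20 in LN stroma. The difference was 1.41 (SE 0.163, adjusted p = 0.00488), and both lines lay above both fresh and embryonic samples. Emx2 stood at 8.06 in BLS12 and 6.55 in BLS4 without antibody, was 1.29 higher in BLS12 with it (8.29 there), and differed by 1.40 (SE 0.145, adjusted p = 0.00357). The promoters of these 2 genes, higher in BLS12, are shown for comparison with those of LN stroma, with capitals as before.
Emx2, chr19:59458440-59458689, plus strand: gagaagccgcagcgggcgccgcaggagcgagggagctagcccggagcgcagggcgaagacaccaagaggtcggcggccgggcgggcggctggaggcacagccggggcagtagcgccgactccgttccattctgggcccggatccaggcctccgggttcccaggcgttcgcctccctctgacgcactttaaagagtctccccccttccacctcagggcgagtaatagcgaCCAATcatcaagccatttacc
Foxf2, chr13:31625566-31625815, plus strand: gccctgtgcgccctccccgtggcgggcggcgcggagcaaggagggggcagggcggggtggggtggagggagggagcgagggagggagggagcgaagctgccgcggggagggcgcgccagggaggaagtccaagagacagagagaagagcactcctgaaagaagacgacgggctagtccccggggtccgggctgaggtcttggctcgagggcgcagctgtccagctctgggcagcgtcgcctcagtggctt

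Emx2 held CCAAT, beginning 21 bases before the start, and Foxf2 none of the motifs in capitals. Both were rich in G and C, at 67.2% and 71.6%, with 24 and 21 CpG in 250 bases. The median over all promoters was 6 CpG and the median over those of members was 15.

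Osr1 showed the largest difference of the 9 in favour of BLS4. It stood at 8.50 and 8.48 in BLS4 without and with antibody and at 6.03 and 6.11 in BLS12, a difference of -2.42 (SE 0.139, adjusted p = 0.000774). LN stroma, at 9.70, was closer to BLS4. Tbx5, the T-box factor of forelimb and heart, stood at 7.78 and 7.15 in BLS4 and at 4.98 and 5.27 in BLS12, and differed by -2.34 (SE 0.239, adjusted p = 0.00346). It was the highest in BLS4 of all samples, with 6.17 in MEF and 5.22 in LN stroma. Prrx2, the relative of Prrx1, stood at 8.37 and 7.55 in BLS4 and at 5.99 and 5.83 in BLS12, and differed by -2.05 (SE 0.195, adjusted p = 0.00284). Prrx1 itself differed by 0.23 with a 95% interval of -0.12 to 0.58 (adjusted p = 0.296).

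Foxf1 stood at 8.17 and 8.67 in BLS4 without and with antibody and at 7.24 and 7.51 in BLS12. Msx2 stood at 5.96 and 5.97 in BLS4 and at 4.99 and 5.16 in BLS12, and Foxc2 at 6.54 and 6.32 against 5.65 and 5.56. Tbx3, a T-box repressor of limb and mammary development, stood at 7.26 and 7.33 in BLS4 and at 6.58 and 6.52 in BLS12. In each of these the BLS4 and BLS12 arrays did not overlap, but the genes were picked by the model on the same arrays, so this adds no support. The smaller differences in favour of BLS4 were thus those of Foxf1 (-1.05, adjusted p = 0.008), Msx2 (-0.89, adjusted p = 0.0116), Foxc2 (-0.83, adjusted p = 0.0138), Tbx3 (-0.75, adjusted p = 0.0178), Tbx18 (-0.61, adjusted p = 0.0333) and Shox2 (-0.52, adjusted p = 0.0468). Msx2, Tbx5 and Foxc2 lay below the array median on both BLS12 arrays and passed the filter through BLS4 alone, so their inclusion among the tested was tied to their difference. The smallest of these depended on the setting: Shox2 had an adjusted p of 0.0647 after centring of the arrays, and 0.113 without antibody as a covariate, where Tbx18 had 0.149. Twist2 (-0.52, adjusted p = 0.0515) and Foxc1 (-0.92, adjusted p = 0.0749) did not pass, with 0.0379 for Twist2 after quantile normalization and 0.0396 for Foxc1 after centring. Foxc1 was at 7.48 in MEF, 7.45 and 6.54 in BLS4 and at 5.92 and 6.24 in BLS12, so the lines were 1.53 apart without antibody and 0.31 with it.

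Of the 20 members tested that did not pass, the intervals were widest for Foxc1 (-1.64 to -0.19). For the splenic factors Nkx2-3, Nkx2-5, Nkx3-2 and Tlx1 the line difference lay between -0.31 and 0.04, and the 95% interval of Nkx2-3 ran from -0.51 to 0.31. The 10 members below the filter were Tbx4, Tbx20, Meox1, Meox2, Lhx8, Lhx9, Alx1, Dlx6, Foxd1 and Tcf21, and the unstimulated lines differed in them by at most 0.33 units.

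Markers of mesothelium and epithelium moved with the line difference. Of 12 such markers, 10 were tested and 8 were higher in BLS12, among them Gpm6a (6.19 log2 units, adjusted p = 0.00157), Bnc1 (4.61, adjusted p = 0.000867), Lrrn4 (4.06, adjusted p = 0.000829) and Upk3b (3.06, adjusted p = 0.00315). Of all genes tested, 12.2% were higher in BLS12. Gpm6a, Lrrn4, Krt19 and Upk1b lay below the array median on both BLS4 arrays and passed the filter through BLS12 alone. The count of 8 was thus tied to the filter and is not read against that share. The summed intensity of the 12 markers was 8997 and 3663 in BLS12 without and with antibody, 667 and 668 in BLS4, 2238 in MEF and 1401 in LN stroma. The epithelial surface genes Epcam (4.07 to 4.73 over the 6 arrays) and Cdh1 (5.26 to 6.06) lay below the filter and were not tested. The part of these transcripts in the differences of Gata6, Gata4, Emx2 and Foxf2 was not tested. On the LN stroma array 10 of the 12 markers were above background, with Upk3b at 8.03 and Gpm6a at 7.16, and Bnc1 (4.81) and Epcam (4.73) were below it.

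**Figure D3:**
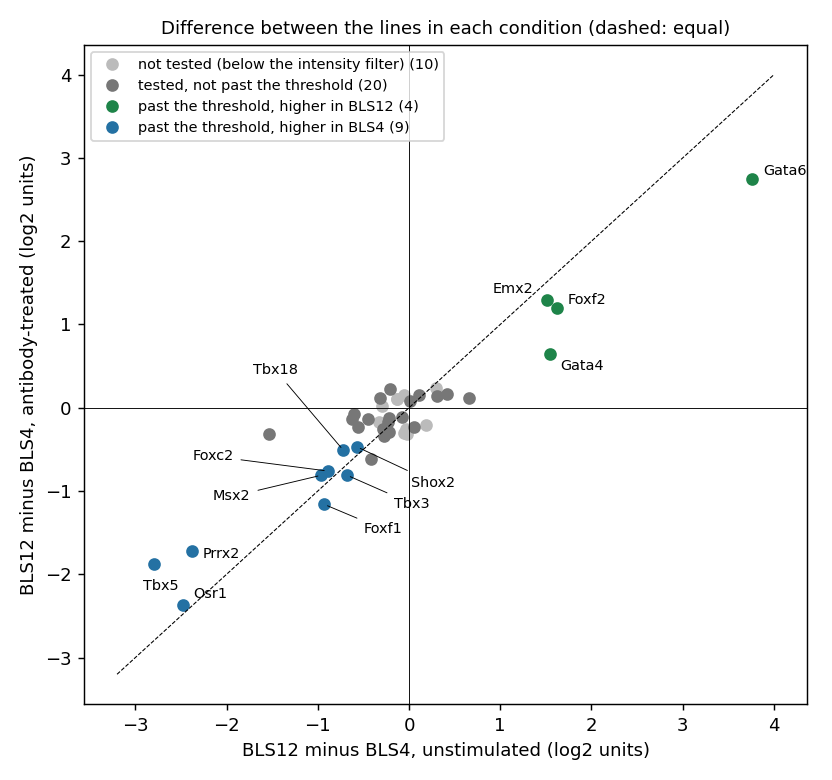
BLS12 minus BLS4 difference of the 43 members in unstimulated cells (x axis) and antibody-treated cells (y axis), in log2 units, with 1 point for each gene coloured by the result in limma. The 4 members higher in BLS12 lie at the upper right and the 9 higher in BLS4 at the lower left, all on the same side of 0 in both conditions, and the grey point apart at -1.53 on the x axis is Foxc1.

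Of 15 pairs of close relatives, 7 had their highest level on the same array and 8 did not. Meox1 and Meox2 were both highest in LN stroma, as were Osr1 and Osr2, while Foxc1 and Foxc2, Lhx2 and Lhx9, Alx1 and Alx4, and Tbx2 and Tbx3 were highest in MEF (Foxc1 by a margin of 7.48 against 7.45 in BLS4), and Gata4 and Gata6 in unstimulated BLS12. Foxf1 and Foxf2 ran in different directions: between the lines Foxf1 was higher in BLS4 and Foxf2 in BLS12, and in LN stroma Foxf1 was 2.14 units above MEF and Foxf2 level with it (-0.05). Msx1 was 1.82 above MEF in LN stroma and Msx2 1.60 below it. Lhx8 was 3.45 higher in LN stroma than in MEF, where its relative Lhx6 had a difference of -0.25. No level is compared between probes here, but each gene's own course over the arrays.

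**Figure D4:**
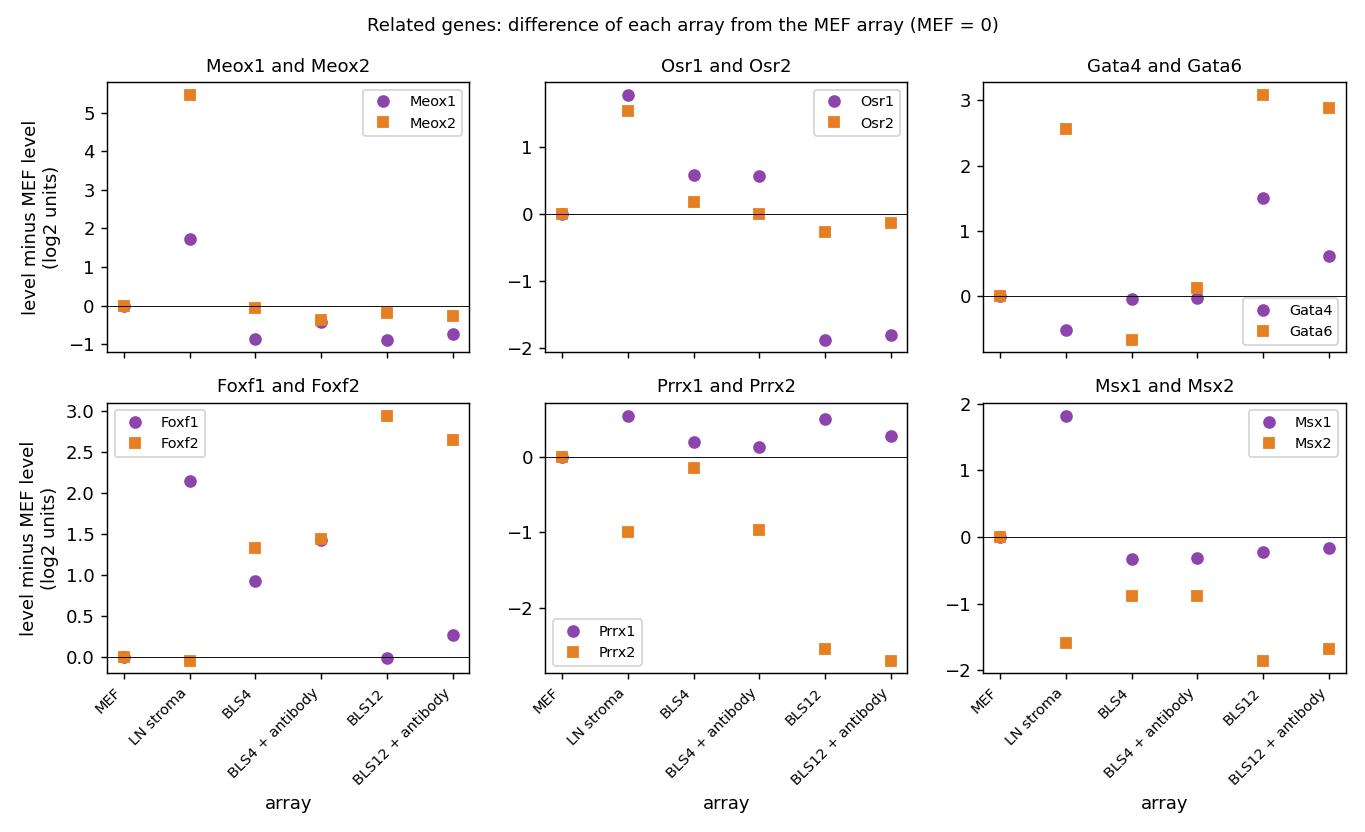
Level of 6 pairs of related genes on each array minus the level on the MEF array (log2 units, MEF at 0), circles for the first and squares for the second gene of each pair. Meox1 and Meox2 rise together in LN stroma, Foxf1 and Foxf2 part in LN stroma and BLS12, and Prrx2 falls in BLS12 where Prrx1 is 0.50 above MEF or less.

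The antibody comparison asked whether LTβR stimulation shifts these factors within each line. In limma 0 of the 33 members tested were called higher or lower, against 0.275% of the 11988 genes (0.2% higher and 0.0751% lower), and 4 members had an unadjusted p under 0.05, as did 1396 genes. The smallest adjusted p of a member was 0.364, for Tbx18, at 8.79 and 9.11 in BLS4 without and with antibody and 8.07 and 8.60 in BLS12. Member differences averaged over the lines ran from -0.49 (Prrx2) to 0.42 (Tbx18). No member differed 2-fold in either line, where the differences ran from -0.90 to 0.81 in BLS4 and from -0.88 to 0.64 in BLS12.

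The direction was the same in both lines for 22 of the 43 members. Members with like values in both lines were Nkx3-2 (0.36 in BLS4 and 0.43 in BLS12), Foxf1 (0.50 and 0.27), Emx2 (0.45 and 0.23) and Six2 (0.23 and 0.21). The values lay farthest apart between the lines for Foxc1 (-0.90 in BLS4 and 0.32 in BLS12) and Gata6 (0.81 and -0.21). Others that differed were Prrx2 (-0.82 in BLS4 and -0.16 in BLS12), Tbx5 (-0.63 and 0.29) and Gata4 (0.01 and -0.88). None of these members was called. With 1 array of each line and condition, a difference in response between the lines has no test.

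**Figure D5:**
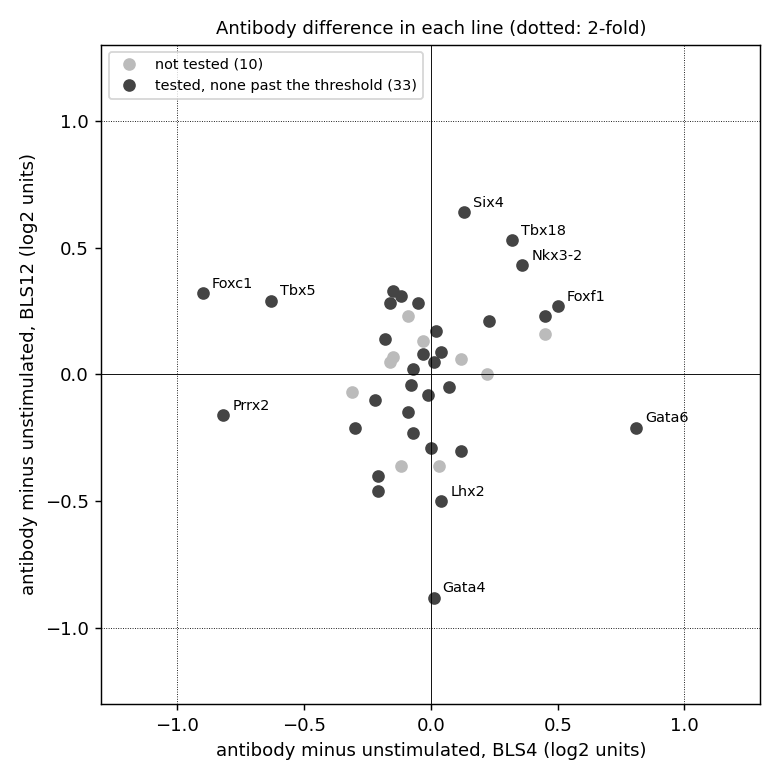
Antibody minus unstimulated difference of the 43 members in BLS4 (x axis) and BLS12 (y axis), in log2 units, with dotted lines at 2-fold. All points lie inside the dotted square, with Foxc1 at -0.90 and Gata6 at 0.81 in BLS4 and Gata4 at -0.88 in BLS12 the farthest out.

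The counts for the 3 lists that follow stand beside shares of all genes of 23.6% called between the lines, 7.57% at 4-fold between LN stroma and MEF, 4.09% between LN stroma and both lines, and 1.44% between both lines and MEF. Some list genes passed the filter through 1 side alone. Between LN stroma and MEF these included Bmp2, Gli1 and Eya2 through LN stroma, and Eya1 and Pax3 through MEF. Against the lines, Gli1, Bmp2, Bmp5 and Wnt2b passed through LN stroma alone. Between the lines, Pax3 passed through BLS12 alone, and Bmpr1b and Nr2f1 through BLS4 alone. The list counts were thus tied to the filter and are not read against those shares. Cofactors of these factors were looked at as a list of 25, with 24 in the table. Between the lines 20 were tested, 1 was higher in BLS12 (Zfpm1, a GATA cofactor, 0.65, adjusted p = 0.0257) and 2 were higher in BLS4 (Id3, an inhibitor of bHLH factors, -0.69, adjusted p = 0.0226, and Meis3, -0.56, adjusted p = 0.0387). LN stroma was at least 4-fold above MEF for Eya2, a transcriptional cofactor (7.88 against 5.63), and Ldb2, a partner of LIM homeobox factors (8.24 against 5.97), and at least 4-fold below it for Eya1 (4.03 against 6.75), 3 of 23 kept. Eya2, Ldb2 and Id3 were 4-fold above both lines, and Eya4 was 4-fold below. Eya1 was also 4-fold lower in both lines than in MEF. Ldb2, like Lhx8, was highest in LN stroma, and the lines held it between 4.97 and 5.28.

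Other patterning factors, a list of 38 with 34 in the table, had 28 tested between the lines. Of these 3 were higher in BLS12: Pax3, a factor of somites and neural crest (2.05, adjusted p = 0.001), Nr2f2 (0.99, adjusted p = 0.042) and Wt1, a factor of mesothelium and kidney (0.56, adjusted p = 0.0456). Another 8 were higher in BLS4, among them the cartilage factor Sox9 (-2.02, adjusted p = 0.00461), Snai2 (-1.33, adjusted p = 0.0147), Irx1 (-1.24, adjusted p = 0.00802) and Nr2f1 (-1.08, adjusted p = 0.00759), and the rest were En1, Snai1, Zeb1 and Zeb2. LN stroma was at least 4-fold above MEF for Zeb2 and Nr2f1 and below it for Pax3, 3 of 30 kept, and above both lines for Nr2f1 alone. Pax3 stood at 7.50 and 7.35 in BLS12 and at 5.39 and 5.36 in BLS4.

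Patterning signals and receptors, a list of 37 with 36 in the table, had 25 tested between the lines. BLS12 was higher for Bmp4 (2.90, adjusted p = 0.000655), the retinoic acid enzyme Aldh1a1 (2.43, adjusted p = 0.000814), Wnt5a (1.43, adjusted p = 0.00348) and Gli2 (0.78, adjusted p = 0.0161). BLS4 was higher for the BMP antagonist Grem1 (-2.39, adjusted p = 0.00721), Bmpr1b (-1.98, adjusted p = 0.00105), Fgf7 (-1.45, adjusted p = 0.00316) and Fgf10 (-1.06, adjusted p = 0.0382). LN stroma was at least 4-fold above MEF for 6 of 35 kept and 4-fold below for 0: Ptch1 (9.18 against 6.89) and Gli1 (7.88 against 5.58), both Hedgehog targets, Bmp2, Wnt2b, Wnt11 and Aldh1a1. Ptch1, Gli1, Bmp2, Wnt2b and Wnt11 were also 4-fold above both lines, with Bmp5, and Fgf10 was 4-fold higher in both lines than in MEF (9.52 and 8.98 against 6.02). With antibody 0 genes of these 3 lists passed in limma, of 73 tested.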

How the data were processed

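The authors deposited 1 linear intensity for each probe set and array, made with Affymetrix Expression Console 1.1 per the submitters' processing notes. How probes were summarised and normalized, and on which genome build, is not given in the sources used here. As the values were linear with a minimum of 3.55, log2 was taken with no floor. Of 35557 entries, 21789 had 1 gene by the platform annotation (21698 matched by Entrez ID), 1621 had several and 12147 none. The entry with the highest mean was used for each of 19938 genes.

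The line and antibody differences came from an additive model of line and antibody over the 4 line arrays in limma 3.58.1 (R 4.3.3, lmFit and eBayes, two-sided, Benjamini-Hochberg over all 11988 genes kept, threshold 0.05). Genes were kept with at least 2 of 4 arrays at or above the array median. In eBayes the prior had 4.59 degrees of freedom and an SD of 0.151 log2 units. The model was tested on simulated data. Comparisons with MEF or LN stroma had 1 array a side: genes with at least 1 array at or above its median were kept, and 4-fold differences were counted, in both lines where lines took part. All members are named, in full where above background in some but not all cell types or past a threshold, and other list genes are named where past a threshold. The members and lists were chosen with earlier results of these data known. Alternatives were other scalings, filters, entries, covariates and fold limits. Precision is limited by how few arrays there were.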

Additional observations from a re-analysis of the deposited data

Results flagged for a closer look

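The antibody difference of Foxc1 had opposite signs in the lines, -0.90 in BLS4 and 0.32 in BLS12, 1.22 log2 units apart. That of Gata6 was 0.81 in BLS4 and -0.21 in BLS12, so BLS12 minus BLS4 was -1.02. These were the members tested with opposite signs in the lines and a gap of at least 1 unit. With 1 array of each line and condition the difference was not tested.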

How the results depend on the processing

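The count of 13 members apart between the lines was 14 after quantile normalization, 10 without antibody as a covariate and 13 under the other 5 settings of the model, where centring added Foxc1 and dropped Shox2, and no called member changed sign under any of these or within 1 condition. All genes called between the lines numbered 1428 without antibody as a covariate. With antibody, no member passed under any of the 7 settings, while all genes called numbered 98 after centring, 6 after quantile normalization, 54 without a filter, 52 with the filter at the receptor background and 0 without the line as a covariate. At 2-fold the counts of genes and members were 2815 and 21 for LN stroma and MEF, 738 and 8 for the lines and MEF, and 1447 and 11 for LN stroma and the lines. For the unstimulated lines against MEF, 0 members passed 4-fold after quantile normalization. In BLS4 alone 385 genes passed, with Alx1 the only member, and in BLS12 alone 463 genes and 5 members. LN stroma differed 4-fold from BLS12 alone in 981 genes and 10 members, and from BLS4 alone in 7 members. Shares of the genes kept are not given for these single-line counts. Meox1, Meox2, Lhx8 and Tcf21 again passed the filter through LN stroma alone. The single-line counts are a description and not a result about the members. Sizes are approximate where the lower level lay near background, and single arrays give no error.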

Other observations

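Of 5 pairs of members that are neighbours on a chromosome, 1 (Tbx2 and Tbx4) had its highest level on the same array. Foxf2 and Foxc1, with no coding gene between them in the RefSeq table, differed by 1.62 and -1.53 log2 units between the unstimulated lines (BLS12 minus BLS4) and by -0.05 and -1.87 between LN stroma and MEF. Foxf1 and Foxc2, with Mthfsd between them, differed by 2.14 and -1.85 between LN stroma and MEF but by -0.93 and -0.89 between the lines. Tbx3 and Tbx5 had negative differences in both comparisons, -0.68 and -2.80 between the lines and -0.71 and -0.95 between LN stroma and MEF. Dlx5 and Dlx6 differed by -0.63 and -0.13 between the lines and by -1.02 and 0.17 between LN stroma and MEF. Pairs of unrelated members were not set beside these, so the values are a description.

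Across the 27 members with a promoter in the RefSeq table, 14 held CCAAT, 4 held TATAAA, 3 held AGATAA, 2 held TAATTA (Msx2 and Prrx1) and 0 held TGTTTAC in the 250 bases before a start. Over all promoters TAATTA was present in 4.85% and TGTTTAC in 3.16%. The median G and C content was 62% in member promoters and 52.4% in all.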
